A study of Homo sapiens with 4 samples.

Results

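In SK-UT-1 cells, a line derived from a uterine leiomyosarcoma, 8307 genomic regions carried a γH2AX peak after OTS186935 alone, after doxorubicin alone and with the vehicle DMSO, but had no peak when both drugs were given together. They were chosen from the peak lists themselves: all listed intervals on chromosomes 1 to 22 and X that overlapped or touched were joined into 123975 regions, and a region was kept when the OTS186935, doxorubicin and DMSO lists each had an interval in it and the combination list had none. The kept regions made up 6.70% of all regions. Chromatin immunoprecipitation with an antibody against phosphorylated H2A.X was followed by sequencing in 4 libraries of SK-UT-1. Cells received OTS186935 at 1 µM together with doxorubicin at 0.5 µM (the combination), OTS186935 alone at 1 µM, doxorubicin alone at 0.5 µM, or the vehicle DMSO at 0.1%. All 4 libraries came from 1 cell line with no added genetic change named in the labels, and how long the drugs were given is not stated in the sources used here. Each condition had 1 library, so no difference between conditions could be tested, and all intervals beside shares are exact 95% Clopper-Pearson intervals that cover counting error only. A γH2AX peak at a gene does not measure its expression, so the identity of the cells could not be checked against marker genes in these lists.

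H2A.X is a variant of histone H2A that the kinases ATM, ATR and DNA-PK phosphorylate in the chromatin around DNA double-strand breaks, where the mark is read by MDC1 and helps to gather repair factors. Doxorubicin intercalates into DNA, traps topoisomerase II on its cleaved substrate and evicts histones. OTS186935 is an inhibitor of SUV39H2, a histone methyltransferase that acts on lysine 9 of histone H3 and is known also to methylate H2A.X. In narrow peak lists such as these, a peak is a local rise over the surrounding background, and broad domains of the mark are not measured.

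The regions carried no combination peak by the way they were chosen, and "no peak" here means no listed interval at the authors' threshold, a −log10 q of 1.00. It does not mean that the mark was absent, since the combination signal below that threshold was not analysed here. The fragments at a peak's summit and the expected local background were solved from the authors' fold enrichment and −log10 p. A listed summit needed at least 4 fragments in the combination library and 3 in each of the others. The lists differed in length, with 29619 intervals in the combination, 62008 with OTS186935, 48594 with doxorubicin and 76870 with DMSO. The lowest solved background was 0.428, 0.397, 0.389 and 0.454 fragments in the same order. Sequencing depth is not stated, and its part in the lengths of the lists was not tested.

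Of the regions that overlapped the start of a gene, the 5 with the strongest peaks are shown by the promoter sequence they overlapped, because there the region reaches an annotated promoter. The summits of the peaks need not lie in the window shown, and their places are given below. The sequences are from RefSeq on GRCh38.p14, run 5′ to 3′ on the strand of the gene, and reach from 250 bases before to 50 bases after the start site. Capitals mark matches, on either strand, to GGGCGG (the GC box of Sp1), to CCAAT (bound by NF-Y), to TATAAA (the TATA box), to TGACTCA (the AP-1 site) or to CACGTG (the E-box). No match shown shares a base with another. The SH3YL1 window is chr2:264343-264642 on the minus strand, that of TMLHE chrX:155612903-155613202 on the minus strand, that of SCAND3 chr6:28616153-28616452 on the minus strand, that of TVP23A chr16:10818745-10819044 on the minus strand, and that of OPRL1 chr20:64092438-64092737 on the plus strand.
SH3YL1: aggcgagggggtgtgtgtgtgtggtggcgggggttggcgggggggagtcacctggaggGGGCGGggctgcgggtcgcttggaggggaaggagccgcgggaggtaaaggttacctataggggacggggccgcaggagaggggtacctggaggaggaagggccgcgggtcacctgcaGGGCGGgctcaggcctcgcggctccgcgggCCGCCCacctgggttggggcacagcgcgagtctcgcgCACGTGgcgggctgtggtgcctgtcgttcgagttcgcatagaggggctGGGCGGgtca
TMLHE: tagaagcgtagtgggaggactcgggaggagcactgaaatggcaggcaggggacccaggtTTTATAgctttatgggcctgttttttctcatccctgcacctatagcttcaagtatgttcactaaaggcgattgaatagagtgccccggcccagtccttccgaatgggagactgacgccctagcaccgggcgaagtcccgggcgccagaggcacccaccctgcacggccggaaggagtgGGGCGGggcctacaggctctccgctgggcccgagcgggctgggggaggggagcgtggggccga
SCAND3: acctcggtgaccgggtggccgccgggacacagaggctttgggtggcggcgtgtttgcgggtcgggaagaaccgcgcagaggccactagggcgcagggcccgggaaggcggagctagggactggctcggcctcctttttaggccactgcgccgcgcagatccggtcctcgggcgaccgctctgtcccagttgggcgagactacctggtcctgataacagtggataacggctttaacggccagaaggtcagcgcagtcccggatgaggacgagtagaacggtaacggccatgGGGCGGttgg
TVP23A: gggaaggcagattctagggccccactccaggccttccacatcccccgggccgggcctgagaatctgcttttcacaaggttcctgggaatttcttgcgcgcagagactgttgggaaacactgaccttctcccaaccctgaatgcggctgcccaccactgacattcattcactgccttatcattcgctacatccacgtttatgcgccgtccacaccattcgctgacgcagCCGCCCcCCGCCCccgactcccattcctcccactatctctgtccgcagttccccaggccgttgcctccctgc
OPRL1: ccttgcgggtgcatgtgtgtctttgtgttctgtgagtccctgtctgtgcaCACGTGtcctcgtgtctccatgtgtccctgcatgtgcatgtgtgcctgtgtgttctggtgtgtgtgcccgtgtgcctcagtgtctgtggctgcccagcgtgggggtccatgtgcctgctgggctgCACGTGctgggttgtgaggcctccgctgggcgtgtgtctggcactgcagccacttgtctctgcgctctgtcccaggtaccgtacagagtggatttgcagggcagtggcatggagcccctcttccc

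The SH3YL1 promoter held 4 GC boxes and 1 E-box and had 72.3% GC with 28 CpG, and those of TMLHE, SCAND3 and TVP23A each held at least 1 GC box. The OPRL1 window, at a start site inside the gene like that of SH3YL1, held 2 E-boxes, no GC box and only 10 CpG. The GC box is common in promoters: it was found in 62.2% of the 481 promoter windows overlapped by a region without a combination peak, in 63.7% of the 908 overlapped by a region with a peak in all 4 libraries, and in 56.3% of all 22132 windows. For CCAAT these shares were 31.2%, 30.5% and 34.6%. For TATAAA they were 5.82%, 7.60% and 9.46%, for TGACTCA 3.12%, 1.32% and 4.01%, and for CACGTG 8.52%, 8.48% and 8.34%. Median GC content was 65.0% in both sets with peaks and 62.3% over all windows. Promoter windows overlapped by regions with and without a combination peak thus had the same median GC content and near shares of GC boxes. A match of letters is a description of the window, not a site of binding.

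The peaks lay at different places relative to those start sites. SH3YL1 encodes a phosphoinositide-binding SH3 protein, and its 5′ end lies near that of ACP1, the low-molecular-weight tyrosine phosphatase gene. The SH3YL1 start site used here, at 264392, is inside the gene, whose 5′ end is at 264824. From the start site used, the summits were 886 bp downstream with OTS186935, 933 bp with doxorubicin and 887 bp with DMSO, and they were farther from the 5′ end of the gene. At TVP23A, a gene of the Golgi apparatus, they were 251, 197 and 181 bp downstream in the same order of libraries. At SCAND3 all 3 summits lay upstream of the start, at -116, -181 and -261 bp. At TMLHE, the first enzyme of carnitine synthesis, whose 5′ end faces that of the Sprouty gene SPRY3, they were 44, 286 and 293 bp downstream. At OPRL1, the nociceptin receptor gene, the OTS186935 and DMSO summits were at 105 and 120 bp while the doxorubicin summit was at -711 bp, so the region joined peaks that were not at the same spot.

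**Figure D1:**
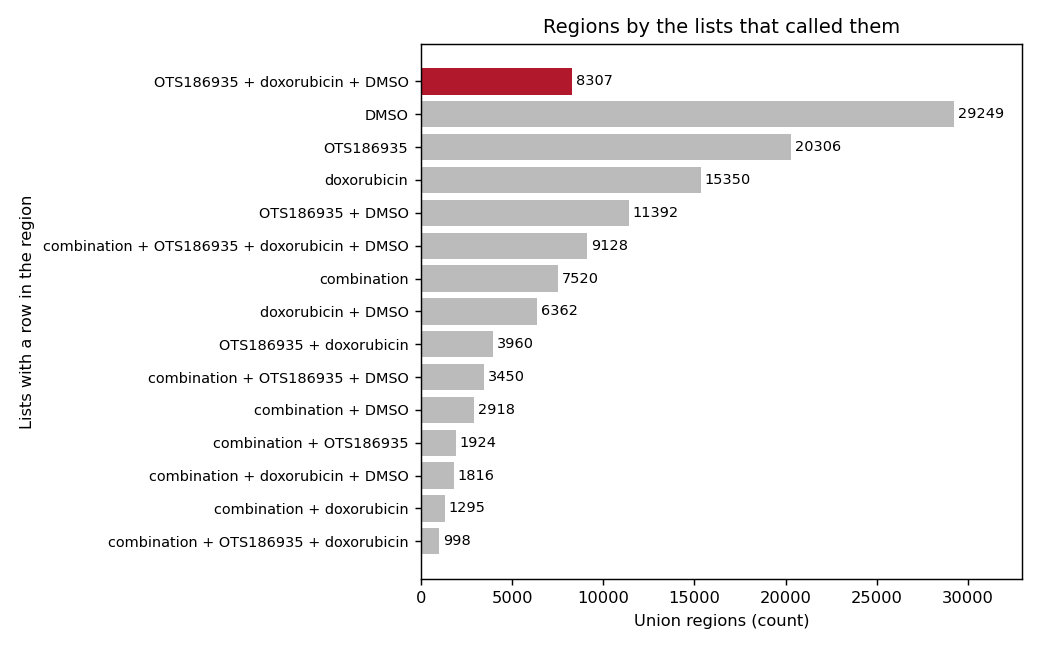
Number of joined regions (horizontal axis) for each set of peak lists that held an interval in them (vertical axis), with the regions missing only in the combination in red and the other sets in grey. The 8307 regions missing only in the combination stand beside 1816 missing only in OTS186935, 3450 missing only in doxorubicin, 998 missing only in DMSO and 9128 in all 4.

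Absence from the combination list was the commonest of the 4 ways to be missing from a single list. Among the 17435 regions with peaks in the OTS186935, doxorubicin and DMSO lists, 8307 or 47.6% (46.9 to 48.4) had none in the combination, and the other 9128 had peaks in all 4. The same share was 16.6% for OTS186935 (1816 of 10944), 27.4% for doxorubicin (3450 of 12578) and 9.86% for DMSO (998 of 10126). The lists differ in length. With every list shortened to its 29561 most significant intervals, the shares were 33.5% for the combination, 25.2% for OTS186935, 27.1% for doxorubicin and 24.5% for DMSO, and the regions missing only in the combination numbered 2409. The order of the 4 libraries was the same at equal length, and the gaps between them were smaller. Regions with a peak under fewer of the other conditions lacked the combination peak more often. That share was 76.8% where OTS186935 and DMSO had peaks and doxorubicin did not, 77.8% where doxorubicin and DMSO had them and OTS186935 did not, and 90.9% where DMSO alone of the 3 had one.

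Distances from the regions to the combination peaks that remained varied. The nearest combination interval was a median of 17375 bp away, and 4.39% of the regions had one within 1 kb and 32.4% within 10 kb. The combination list is the shortest, and the part of its length in these distances was not tested. The closest lay 9 bp outside a region, at chr20:58840561-58842123 and at chr9:36985956-36987187. On the other side of the threshold, the region chr12:47751004-47751741 had a combination peak of −log10 q 1.00 with 9 summit fragments, and chr16:56662914-56663462 one of −log10 q 1.00 with 5. Of the regions with peaks in all 4 libraries, 1696 or 18.6% had a combination −log10 q below 2. The weakest regions kept had a −log10 q of 1.00 in their weakest list, as at chr17:7041726-7042887.

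Within the regions, peaks were strongest with DMSO and weakest with doxorubicin. Median fold enrichment over local background, the authors' value for each peak, was 4.40 with OTS186935, 4.24 with doxorubicin and 4.77 with DMSO. Median −log10 q was 3.59, 2.78 and 4.33, on summits of 9, 8 and 10 fragments. In the regions with peaks in all 4 libraries the medians were higher, with folds of 5.08, 4.76 and 5.47. The −log10 q was highest in DMSO for 53% of the regions and lowest in doxorubicin for 55.1%. The regions had a median width of 711 bp, against 837 bp for those with peaks in all 4. It was 633 bp for regions missing only in OTS186935, 687 bp for doxorubicin and 608 bp for DMSO. A region joins the intervals of every list in it, so its width depends also on the number of lists. Most regions without a combination peak were simple: 84.8% had 1 summit in each of the 3 lists, against 72.4% of those in all 4. The 3 summits lay within 200 bp of each other in 56.1%, against 49.1%. Across the 8307 regions the folds of OTS186935 and DMSO had a Spearman correlation of 0.50, those of doxorubicin and DMSO 0.43, and those of OTS186935 and doxorubicin 0.42. These correlations describe regions that share libraries and the need to pass a threshold in each.

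**Figure D2:**
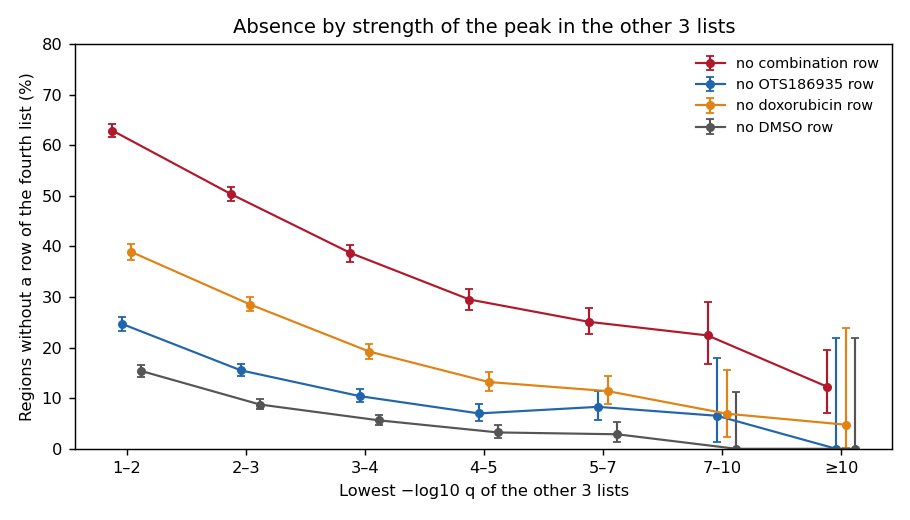
Percent of regions without a peak in the named list (vertical axis), by the lowest −log10 q of the other 3 lists (horizontal axis), with exact 95% intervals for counting error as bars. The combination line is 62.9% at a −log10 q of 1 to 2 and 12.3% at 10 or more, and lies above the other 3 lines in each class.

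Weak regions lacked the combination peak most often, and strong ones less often. Where the weakest of the 3 other lists had a −log10 q of 1 to 2, 62.9% of regions had no combination peak, and the share was 50.3% at 2 to 3, 38.7% at 3 to 4, 29.5% at 4 to 5, 25.1% at 5 to 7, 22.4% at 7 to 10 and 12.3% (7.05 to 19.5) at 10 or more. The other absences were also most frequent among the weakest regions, at lower levels, though that of OTS186935 was 6.99% at 4 to 5 and 8.29% at 5 to 7. At 1 to 2, OTS186935 was missing from 24.7%, doxorubicin from 38.9% and DMSO from 15.4% of the regions that the other 3 lists shared, and at 5 to 7 doxorubicin was missing from 11.4% and DMSO from 2.87%. In all, 339 of the 1433 regions with a −log10 q of 5 or more in each of the 3 lists (23.7%) had no combination peak.

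The strongest peaks lay near chromosome ends, whether or not the combination had one. Of the 15 with a −log10 q of 10 or more in all 3 lists, 13 were in the outer 1 Mb of a chromosome, against 102 of the 107 as strong with peaks in all 4 libraries. At 5 or more, 97 of the 339 without a combination peak (28.6%) were there, against 295 of 1094 (27.0%) in all 4. Of all 8307 regions, 610 (7.34%) were there. Many chromosome ends hold duplicated sequence, and how reads from such copies were placed is not given in the sources used here. The highest-ranked region, chr1:248911586-248912018, lay inside PGBD2, a gene derived from a piggyBac transposase. It had a −log10 q of 21.4 with OTS186935, 18.4 with doxorubicin and 24.9 with DMSO, on summits of 32, 28 and 37 fragments. The 3 lists placed their summits close together, at positions 248911762, 248911794 and 248911783, and the nearest combination peak was 9986 bp away. The second, chr11:134945933-134946408, was in no coding gene and had 33 summit fragments with OTS186935, 24 with doxorubicin and 41 with DMSO. The region chr2:17134-17572, also in no coding gene, had 30, 27 and 40 fragments, and a combination peak lay 1398 bp from it.

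The region chr20:64262570-64263245 lay inside PCMTD2, which encodes a protein related to protein-L-isoaspartate methyltransferase, with 33 fragments with OTS186935, 22 with doxorubicin and 22 with DMSO. A second region at the 5′ end of the same gene, chr20:64254411-64255416, had 44, 16 and 32, the OTS186935 peak reaching a −log10 q of 30.9 against 7.02 with doxorubicin and 18.6 with DMSO. Here the OTS186935 library was the highest and doxorubicin the lowest. In DOC2B, the gene of a calcium sensor of vesicle release, chr17:169711-170655 had 43, 38 and 48 fragments over a high local background of 8.89, 6.46 and 9.94 fragments, hence folds of only 4.45, 5.23 and 4.48. The region with the highest fold, chr14:106838876-106839563 in the immunoglobulin heavy chain locus IGH, had folds of 14.8 with OTS186935, 9.11 with doxorubicin and 15.8 with DMSO. The next 2 by OTS186935 and DMSO fold were also near chromosome ends, chr4:256329-257045 with 14.7, 9.17 and 15.1 and chr9:138175196-138175768 with 13.9, 8.80 and 13.9. Doxorubicin was the lowest in these 3, which were picked by the other libraries' folds. Ranked by doxorubicin, the highest fold was at OR2T10, with 9.88 with OTS186935, 11.5 with doxorubicin and 9.56 with DMSO, followed by chr11:134945933-134946408 with 11.3, 10.9 and 12.3 and the PGBD2 region with 10.4, 10.3 and 10.7. The other regions among the highest 10 were chr11:134442213-134442713 at the noncoding gene B3GAT1-DT, chr1:148309919-148310636 in a duplicated part of chromosome 1, and those at OR2T10 and at SH3YL1 and ACP1.

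**Figure D3:**
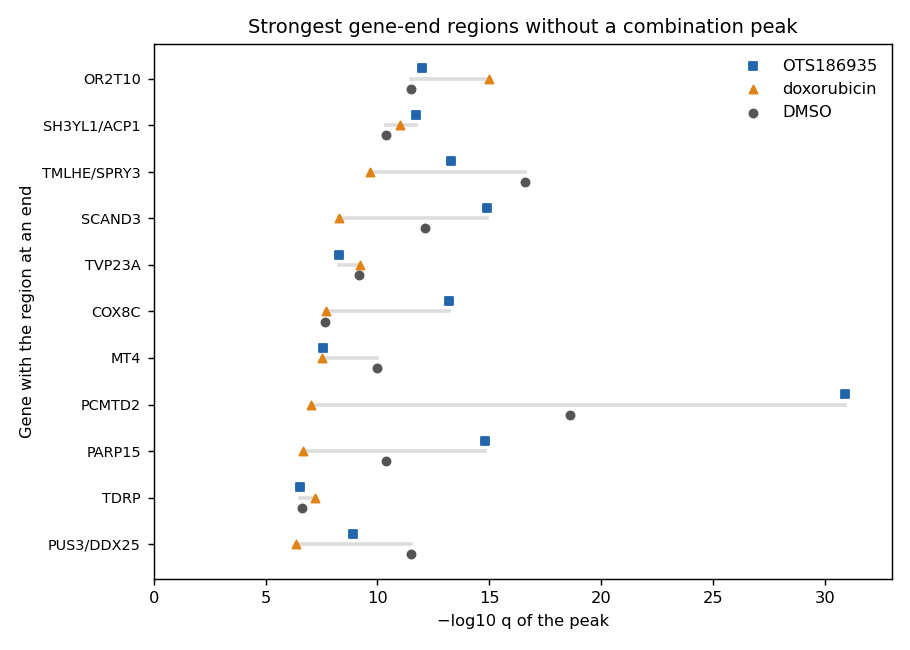
The −log10 q of the peak (horizontal axis) with OTS186935 (squares), doxorubicin (triangles) and DMSO (circles) at the 11 strongest gene-end regions without a combination peak, named by gene and ordered by the lowest of the 3 values. The library with the highest peak differs from gene to gene: OTS186935 at PCMTD2 with 30.9, doxorubicin at OR2T10 with 15 and DMSO at TMLHE and SPRY3 with 16.6.

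At gene ends, taken as 1 kb either side of either end of a protein-coding gene, the strongest regions lay at genes of varied roles. OR2T10 is an olfactory receptor gene in a cluster of similar genes, and how reads from similar sequence were placed is not given. At its 3′ end, the region chr1:248589964-248590495 had a −log10 q of 12 with OTS186935, 15 with doxorubicin and 11.5 with DMSO. The summits of this region lay just outside the gene and had 14, 17 and 13 fragments, with doxorubicin the highest. The region at the 5′ ends of SH3YL1 and ACP1 had 11.7, 11 and 10.4, which is nearly level across the 3 libraries. This region reached the 1 kb windows of both genes, but its summits lay beyond them, inside SH3YL1. TMLHE and SPRY3 had 13.3, 9.67 and 16.6, and SCAND3 14.9, 8.30 and 12.1. TVP23A had 8.30, 9.24 and 9.17 and was again nearly level. COX8C, a form of cytochrome c oxidase subunit 8 found in testis, had 13.2, 7.70 and 7.66, with OTS186935 above the other libraries. MT4, a metallothionein gene of squamous epithelium, had 7.55, 7.52 and 10.0, and PARP15, a mono-ADP-ribosyltransferase gene, had 14.8, 6.66 and 10.4.

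PUS3, a pseudouridine synthase gene, shares its 5′ end with DDX25, an RNA helicase gene of the testis, and the region there had a −log10 q of 8.90 with OTS186935, 6.35 with doxorubicin and 11.5 with DMSO. IGSF11, a cell adhesion gene, shares its 5′ end with TEX55, and values there were 6.34, 6.87 and 6.76. DDRGK1, which acts in the attachment of the ubiquitin-like protein UFM1, and ITPA, which removes deaminated purine nucleotides from the cell's pool, shared a region with 8.24, 9.95 and 6.02, doxorubicin being the highest. RNF169, whose protein binds ubiquitylated chromatin at DNA breaks, had 6.12, 8.21 and 6.39 at its 3′ end (chr11:74842928-74843519), on 10, 11 and 10 summit fragments. ATF7IP2, a relative of the SETDB1 partner ATF7IP, had 6.84, 6.14 and 10.1. TEX12, a component of the synaptonemal complex, had 11.3, 5.58 and 5.71. APBB1IP, the gene of a Rap1 effector in integrin activation, had 5.75, 5.84 and 6.77. TDRP, KRABD1 and CRYBG2 were also among the 25 highest and had −log10 q values between 5.62 and 7.76. Of the 25, only TDRP had a combination peak elsewhere at its ends, 598 bp from the region.

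In total 1147 of 19974 protein-coding genes (5.74%) had such a region at an end, and 1034 (5.18%) had no combination peak at either end. Among the 2684 genes with a 3-library region at an end, 42.7% had one without a combination peak. The lists of DNA repair and damage response rest on very small counts. Of 32 homologous recombination and damage signalling genes, 2 had a 3-library region at an end and both lacked the combination peak there. The stronger was at RPA1, a subunit of the single-stranded DNA binding protein RPA, with a −log10 q of 5.93 with OTS186935, 3.25 with doxorubicin and 4.58 with DMSO at its 3′ end. The other was at H2AX itself, the gene of the histone whose mark was mapped, with 4.18, 2.81 and 3.10 at chr11:119094360-119095352, where the window of DPAGT1 also reaches. The only such topoisomerase or end-cleansing gene of 11 was TOP1MT, the mitochondrial topoisomerase I gene, with 2.43, 4.42 and 4.95. Of 24 PARP and end joining genes the 1 with a 3-library region had its peak in all 4. PARP15, named above without a combination peak, was not among those 24. Of 22 p53 targets, 3 had a 3-library region and 1 of these, GADD45A, a growth arrest and damage gene, lacked the combination peak, with 1.71, 1.96 and 7.40, DMSO being far the highest.

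The other lists ranged from 0 of 6 for neuronal genes to 6 of 8 for cytosolic ribosomal protein genes, beside the 42.7% of all genes, and most counts were small. Of 28 immediate early and stress genes, 2 had a 3-library region and FOSL2, an AP-1 subunit gene, lacked the combination peak, with a −log10 q of 1.97 with OTS186935, 3.95 with doxorubicin and 3.62 with DMSO. Smooth muscle genes had 0 of 4, neuronal genes 0 of 6 and genes altered in leiomyosarcoma 0 of 1, so all of these kept a combination peak. Epithelial genes had 1 of 4, CLDN4, a tight junction gene, with 3.83, 2.37 and 3.92. No gene of the H3K9 methylation and heterochromatin, interferon response, or mitosis and replication licensing lists had a 3-library region at an end. Replication-dependent histone genes had 2 of 6, H1-1 and H4C6, and both had a combination peak elsewhere at their ends. Cytosolic ribosomal protein genes had 6 of 8, among them RPL3L, RPL36AL, RPL10L and RPL10. RPL10 had a combination peak elsewhere at its ends, and the region at RPL36AL also lay at an end of MGAT2. RPL3L, RPL36AL and RPL10L are close relatives of other ribosomal protein genes, and how reads from similar sequence were placed is not given. The region at RPL36AL lay outside that gene, as did the summits at RPL10L, so these peaks were centred on flanking sequence. Of these, RPL36AL had 2.87, 5.84 and 6.31, and RPL10L 1.97, 5.05 and 6.54, OTS186935 being the lowest at both. Zinc finger genes of chromosome 19, many of them repressors of transposable elements, had 13 of 30, or 43.3%, near the background. ZNF180 had the strongest, with 4.83, 9.02 and 11.6, and ZNF737, ZSCAN18 and ZNF837 followed with lowest values of 4.73, 3.92 and 3.74. ZSCAN18 had a combination peak elsewhere at its ends.

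By position, the regions lay inside genes away from their ends more often, and at gene ends less often, than the regions with peaks in all 4 libraries. Those within a gene but off its ends made up 47.8% (46.7 to 48.9), against 40.1% (39.0 to 41.1) of regions in all 4 and 49.7% of all regions. Gene ends held 12.8% (12.1 to 13.5), against 16.2% (15.5 to 17.0) and 8.98%. Where strand was known, 5′ ends held 6.84% against 9.89%, and 3′ ends 3.52% against 4.20%. The remaining 39.4% lay between genes, against 43.7%. Read the other way, 38.6% of 3-library regions at 5′ ends lacked the combination peak, 43.3% at 3′ ends, 52.1% within genes off their ends and 45.1% between genes. The same order from 5′ ends to gene bodies held for the absence of OTS186935 (10.1% and 18.8%), doxorubicin (20.3% and 30.2%) and DMSO (4.44% and 11.4%), so it is shared by all 4 absences. Of the 1062 gene-end regions, 259 lay only at ends of genes whose strand the tables used do not give, and 29 lay at the 5′ ends of a pair of genes on opposite strands.

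The genes with the most such regions in their bodies were mostly long, and several lay near a chromosome end. DLGAP2, a postsynaptic scaffold gene on chromosome 8, had 22 of 46 3-library regions without a combination peak. CDH4, the R-cadherin gene, had 15 of 19 (78.9%, 54.4 to 93.9) and PTPRN2, a phosphatase-like gene of secretory granules, 14 of 42 (33.3%, 19.6 to 49.5). The interval of CDH4 lay above the 47.6% of all 3-library regions, and that of PTPRN2 included it. CAMTA1, the gene of a calmodulin-binding transcription activator, had 10 of 11. Shorter genes were also among those with the most: TBCD, a tubulin folding cofactor gene of 194 kb, had 9 of 11 and RPH3AL, of 140 kb, 9 of 22. The calcium channel gene CACNA1C had 8 of 17, close to that share. Genes of common fragile sites had 16 of 48 in their bodies, or 33.3%, among them 2 of 3 in RBFOX1 and 1 of 6 in DLG2. FHIT had no 3-library region at all, and WWOX had 1, without a combination peak.

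**Figure D4:**
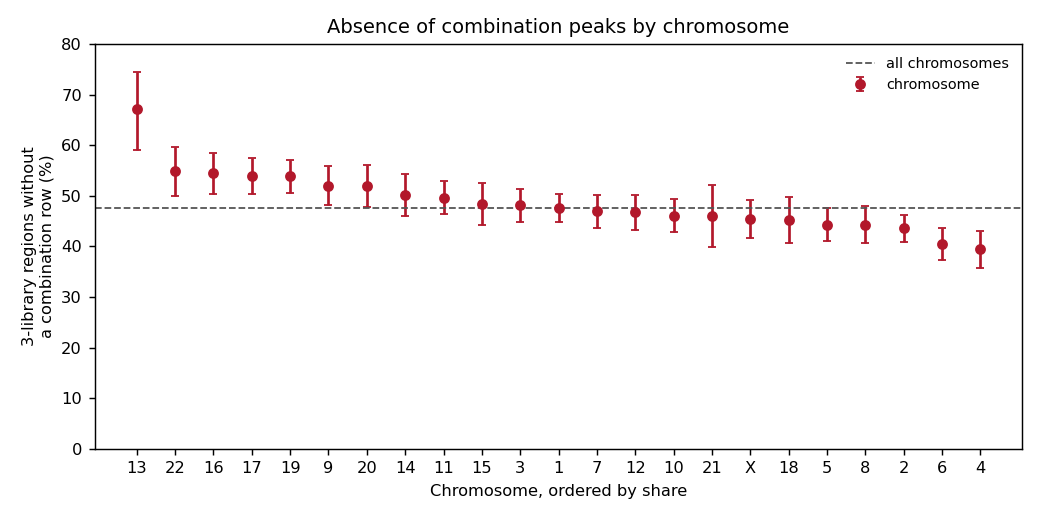
Percent of 3-library regions without a combination peak on each chromosome (vertical axis, chromosomes ordered by share), with exact 95% intervals for counting error as bars and a dashed line at the 47.6% of all chromosomes. Chromosome 13 is highest at 67.1% and chromosome 4 lowest at 39.4%.

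Chromosomes differed in the share of 3-library regions without a combination peak. Chromosome 13 had the highest, 102 of 152 or 67.1% (59.0 to 74.5), followed by 22 (54.9%), 16 (54.5%), 17 (54.0%) and gene-dense 19 (53.9%), which had 495 regions, or 8.45 per Mb. Chromosome 4 had the lowest, 289 of 734 or 39.4% (35.8 to 43.0), after chromosome 6 with 40.5%. Chromosome 13 also had weak peaks, with a median of 1.97 for the lowest −log10 q of the 3, against 2.81 on chromosome 4, and there OTS186935 was missing from 26.5%, doxorubicin from 39.8% and DMSO from 21.9% of the regions shared by the other 3 lists. The part of peak strength and of the other absences in its share was not tested. Over 607 windows of 1 Mb with at least 10 such regions the share had quartiles of 41.7% and 61.5%. The highest window, chr3:12000001-13000000, had 11 of 12 (61.5 to 99.8%) and holds PPARG, a regulator of fat cells. Others among the highest were chr5:176000001-177000000 with 10 of 11 and chr9:126000001-127000000, which holds the homeobox gene LMX1B, with 18 of 21. The lowest, chr16:35000001-36000000, had 1 of 13 and no coding gene, and chr6:160000001-161000000, which holds IGF2R and PLG, had 1 of 11. These windows are the ends of a range of 607, and their intervals are wide.

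**Figure D5:**
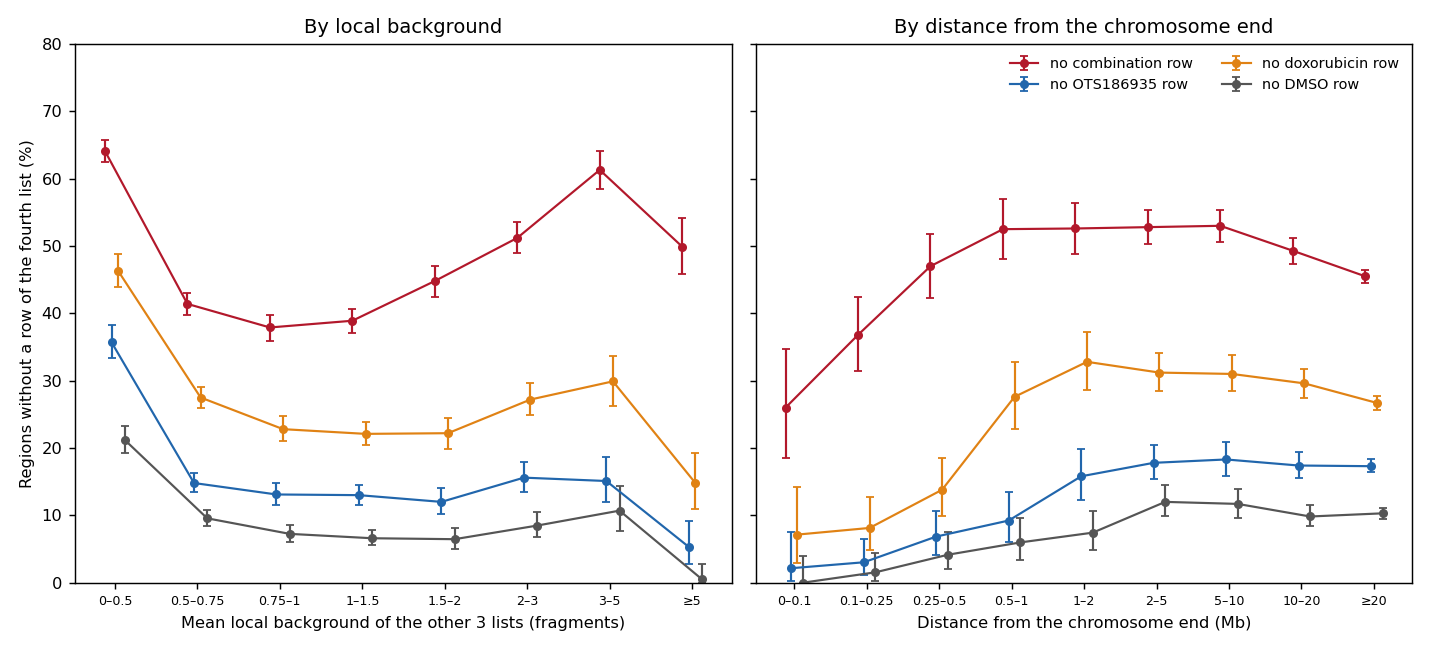
Percent of regions without a peak in the named list (vertical axes), by the mean local background of the other 3 lists in fragments (left) and by distance from the chromosome end in Mb (right), with exact 95% intervals for counting error as bars. At a background of 5 or more the combination stands at 49.9%, against 5.31% for OTS186935, 14.8% for doxorubicin and 0.503% for DMSO, and in the outermost 0.1 Mb it stands at 26.0%. The background is averaged over the lists other than the named one, so a class holds different regions for each line.

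In the class of high local background the combination share stood above those of the other libraries, though over different regions for each library. Averaged over the 3 lists, a background of 5 fragments or more was found at 577 3-library regions, of which 288 or 49.9% (45.8 to 54.1) had no combination peak. For each other absence the average was over the 3 lists other than the missing one, so the combination's own background entered it. At 5 or more by that average, OTS186935 was missing from 5.31% of 226 regions, doxorubicin from 14.8% of 304 and DMSO from 0.503% (1 of 199). The 4 shares are thus not taken at the same background. With lists of equal length, a setting added once results were known, the shares were 31.9% (26.6 to 37.7) for the combination, 6.02% for OTS186935, 11.4% for doxorubicin and 7.36% for DMSO. At a background of 0.75 to 1.5 they were 27.8%, 22.1%, 24.4% and 22.4% in the same order, and below 0.5 they were 52.6%, 41.9%, 44.0% and 33.8%. The combination was the highest in all 3 classes of background compared at equal length, though each class again held different regions for each library. The combination library also had fewer high backgrounds at its own peaks, with a 99th percentile of 4.13 fragments, against 9.05 with OTS186935, 6.40 with doxorubicin and 9.94 with DMSO. The part of that difference in the missing peaks and in the classes of background was not tested.

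These regions with a high background lay mostly at chromosome ends, 230 of 288 (79.9%) in the outer 1 Mb, against 266 of 289 (92.0%) with peaks in all 4. The highest counts were 38 of 70 on chromosome 17, 28 of 60 on chromosome 5 and 28 of 62 on chromosome 7, shares near the 49.9% of all high-background regions. Chromosome 19 was next in count, with a higher share of 22 of 30 (73.3%). Shares ranged from 2 of 7 on chromosome 6 (28.6%) to 8 of 9 on chromosome 9 (88.9%), both on few regions. The first Mb of chromosome 5, which holds SDHA, a subunit of succinate dehydrogenase, and AHRR, the repressor of the aryl hydrocarbon receptor, had 22 of 49 without a combination peak. The window chr17:82000001-83000000, which holds FASN, the fatty acid synthase gene, had 14 of 18, and chr2:241000001-242000000, which holds PASK, a metabolic sensor kinase gene, had 15 of 25.

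Close to a chromosome end fewer regions lacked the combination peak. In the outermost 0.1 Mb 26.0% (18.5 to 34.7) of 3-library regions lacked the combination peak, and the share was 36.8% at 0.1 to 0.25 Mb, 47.0% at 0.25 to 0.5 Mb, 52.5% at 0.5 to 1 Mb 53% at 5 to 10 Mb and 45.5% beyond 20 Mb. The other 3 absences were also rarest there, at 2.15% for OTS186935, 7.14% for doxorubicin and 0 for DMSO (upper limit 3.97%) in the outermost 0.1 Mb. Peaks were strongest at the very end, with a median lowest −log10 q of 6.29 in the outermost 0.1 Mb and 2.72 at 0.5 to 1 Mb. At like strength the order was the other way in the classes below a −log10 q of 10, from 66.2% in the outer 1 Mb against 62.7% elsewhere at 1 to 2 to 24.4% against 20.6% at 7 to 10. At 10 or more the share was 13 of 115 (11.3%) in the outer 1 Mb against 2 of 7 (28.6%) elsewhere, where few such regions lay.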

How the data were processed

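The data were 4 lists of γH2AX peaks, 1 for each condition of SK-UT-1. Per the labels' protocols, formaldehyde-fixed chromatin was sonicated and precipitated with a phospho-H2A.X antibody before ThruPLEX library preparation. MACS2 2.2.7.1, Bowtie2 2.4.2, bedtools 2.30.0, Picard 2.25.3 and the build hg38 are named in the submitters' processing notes. Read filters, options of the peak caller, an input control and sequencing depth are not stated there. In the deposited lists each row is 1 summit with a fold enrichment (a ratio), a −log10 p, a −log10 q, a score and the summit's offset, all of them the authors' values. The score was not used for any result.

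Summit fragments and local background were solved from fold and −log10 p, taking fold as fragments + 1 over background + 1 and p as a Poisson tail, with a tolerance of 0.002 in −log10 p, which 100% of rows met. The processing was checked on simulated data, among them 4000 simulated regions. How exact the solved values are at high local backgrounds was not tested. In regions with peaks in all 4 libraries the solved DMSO background reached 36.4 fragments. Rows of all lists that overlapped or touched were joined, and a region took the highest row of each list. Genes came from a RefSeq table of GRCh38.p14. It gives no strand, which was taken from the RefSeq promoter table for 15812 of 19974 genes (79.2%), so counts of 5′ and 3′ ends cover those genes, and exons were not told apart. A chromosome was taken to end at the last listed peak or annotated gene, so distances to an end can be too short.

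Named are the 10 regions with the highest value of the lowest −log10 q over the 3 lists, the 25 such genes, up to 4 genes per list, 5 promoters and the 3 highest folds per list, and some of these are not reported here. The other list members, long genes, windows and regions named were picked after their values were seen. The regions and the 16 gene lists were chosen with earlier results of these data known. The alternatives tried were a −log10 q limit of 2 or 5, a common −log10 p limit, lists of equal length, joining within 1 kb, a cover of 50%, no combination row within 1 kb, all contigs and windows of 2.5 kb. No test was made and no p-value computed. Python 3.11.15, numpy 2.4.6, pandas 2.3.3 and scipy 1.17.1 were used.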

Additional observations from a re-analysis of the deposited data

How the results depend on the processing

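With 1 library per condition, no value here has a replicate error, and a weak combination peak cannot be told from none. No paired analysis was possible because each condition had 1 library. Of 38 values under alternatives, 19 moved: a count by more than 1.5 times, a share to outside its 95% interval. The other 19 did not, though counts among them fell as far as 5877 regions and 842 genes, both at a −log10 q of 2 or more. The number of regions was 1121 with a −log10 q of 5 or more, 2409 with lists of equal length and 4658 with the 3 summits within 200 bp of each other, an alternative chosen after the data had been seen, as were equal lengths within classes of background. The share of 3-library regions without a combination peak was 49.8% at a −log10 q of 2 or more, 78.2% at 5 or more, 46.7% at a common −log10 p limit of 3.08, 33.5% with equal lengths, 46.9% with rows within 1 kb joined, 57.1% with a cover of 50%, 45.6% with no combination row within 1 kb and 51.0% with summits within 200 bp. The gene-end share was 13.8% at a −log10 q of 5 or more, 10.4% with equal lengths, 18.7% with windows of 2.5 kb and 9.85% with summits within 200 bp. Genes with a region at an end numbered 165, 277, 1745 and 494 in the same order. A −log10 q limit also removes weak combination peaks. With equal lengths fewer rows of the other lists enter. The cause of the moves was not tested.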
